A study of Mus musculus with 12 samples.

Results

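The PYHIN family was described in dendritic cells grown from the bone marrow of interleukin 2 (IL-2) knockout and wild-type mice, given the beta-glucan curdlan or left untreated. Its members were to be Ifi204, Ifi205, Ifi213 and Aim2, taken where a probe set of the array was annotated to that gene and to no other. Of these 4 genes, 3 had such a probe set, out of 19937 genes tested. Ifi204 shares its only probe set with Ifi211 and could not be measured on its own. Each of the other 3 had 1 probe set, so the rule of keeping the one with the highest mean made no choice. A further 7 genes of the family had a probe set of their own, which brought the family to 10 measured genes. Mndal, whose symbol was also looked up, had no probe set annotated to it. The family was chosen by the log2 differences between curdlan-treated and untreated wild-type cells, where the large rises of Ifi205 and Ifi213 were already known, so the members' values in that comparison are given as a description, without a test.

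PYHIN proteins typically join a pyrin domain, which assembles with other pyrin domains, to a HIN domain, which binds DNA. Aim2 recognises DNA in the cytosol and recruits the adaptor encoded by Pycard and the protease caspase-1, an assembly called an inflammasome. Ifi204 is regarded as the mouse counterpart of human IFI16, which senses DNA and signals through STING. Many of the other genes were found as targets of interferon, and Ifi202b encodes a protein without a pyrin domain that restrains Aim2. In dendritic cells and macrophages the family is best known for linking foreign or misplaced DNA to inflammation.

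The RNA of 12 samples was hybridised to Affymetrix arrays, 3 samples in each of 4 groups: IL-2 knockout cells given curdlan for 6 h, IL-2 knockout cells left untreated, wild-type cells given curdlan for 6 h, and wild-type cells left untreated. Bone marrow had been grown with GM-CSF (200 ng/ml) over 7 days before selection on CD11c beads. B6.129P2-Il2tm1Hor/J is given as the strain of every sample, wild type included, so genotype was read from the genotype label. Curdlan, a bacterial beta-glucan used in place of fungal cell wall, engages the receptor Dectin-1, and the design addresses the part of IL-2 in dendritic cell physiology. Since nothing in the labels marks replicates as separate animals or cultures, the p-values reflect only how far these samples differed, which may be technical.

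The arrays had like distributions, with medians between 6.59 and 6.64 on the log2 scale and lower quartiles between 5.08 and 5.15. Il2 gave log2 values of 5.63 to 5.87 in knockout cells and 6.74 to 7.80 in wild-type cells after curdlan, and 5.77 to 6.04 in knockout cells and 5.37 to 5.57 in wild-type cells left untreated. Of 8 dendritic cell markers, 7 lay above every array's median on all arrays, and so did 5 of 5 macrophage markers. Markers of T cells (4 of 5), B cells (4 of 4), NK cells (3 of 4) and neutrophils (5 of 6) lay below every array's median, and 1 neutrophil marker lay above it. In bulk samples such as these, fewer cells of a type and less RNA per cell cannot be told apart.

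The 10 measured genes lie in a cluster on chromosome 1 (GRCm38.p6), between 173349547 and 174031755. Their promoter windows, 250 bases before to 50 after a transcription start, were taken from RefSeq, which gave 11 windows for 10 of 10 genes, and searched on both strands for the core of the interferon-stimulated response element (ISRE), written as GAAA, any 2 bases and GAAA, and for the GAS motif TTCNNNGAA and the AP-1 motif TGANTCA. The windows of the 3 members are shown because Ifi205 and Ifi213 moved by far more than Aim2. They are printed in the direction of the gene, 5′ to 3′, with matches to the ISRE core in capitals.
Ifi205, chr1:174031706-174032005, minus strand: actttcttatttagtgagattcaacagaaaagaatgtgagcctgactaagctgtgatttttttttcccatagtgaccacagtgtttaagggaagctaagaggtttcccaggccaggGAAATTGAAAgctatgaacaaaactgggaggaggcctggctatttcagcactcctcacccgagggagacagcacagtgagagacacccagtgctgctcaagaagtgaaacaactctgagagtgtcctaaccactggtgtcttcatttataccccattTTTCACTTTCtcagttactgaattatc
Ifi213, chr1:173599223-173599522, minus strand: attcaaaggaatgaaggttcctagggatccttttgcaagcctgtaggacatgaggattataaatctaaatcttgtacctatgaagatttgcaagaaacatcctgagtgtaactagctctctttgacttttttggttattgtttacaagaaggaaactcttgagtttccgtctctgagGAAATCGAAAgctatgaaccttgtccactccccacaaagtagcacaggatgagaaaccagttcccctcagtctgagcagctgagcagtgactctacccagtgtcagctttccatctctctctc
Aim2, chr1:173420354-173420653, plus strand: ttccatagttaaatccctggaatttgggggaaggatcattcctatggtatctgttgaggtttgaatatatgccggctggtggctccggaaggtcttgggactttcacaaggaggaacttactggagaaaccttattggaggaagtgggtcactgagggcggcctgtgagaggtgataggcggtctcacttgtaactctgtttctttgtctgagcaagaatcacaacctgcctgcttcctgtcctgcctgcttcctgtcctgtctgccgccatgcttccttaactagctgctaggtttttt

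Ifi205 held 2 matches to the ISRE core, one beginning at base -134 from the start and one, on the opposite strand, at base 24. Ifi213 held 1 match, at base -73, and the window of Aim2 held 0. The annotated span of Aim2 begins at base 173349547, well before this window, and the sequence at that end was not searched. Across the family 7 of 10 genes had a match in a window (Ifi203, Ifi205, Ifi206, Ifi207, Ifi208, Ifi213 and Ifi214), and Ifi202b, Ifi209 and Aim2 had none. Of all 32851 promoter windows, 3.44% held the ISRE core, 8.3% the GAS motif and 7.81% the AP-1 motif. These shares count windows, while the family is counted by genes, with 11 windows for 10 genes. The window of Ifi203 that begins at base 173942623 held no ISRE core match. In the family 1 gene had a GAS match and 2 had an AP-1 match, and 0 matches of different motifs overlapped. Of the 8 ISRE matches, 6 read GAAATCGAAA. A match describes these letters only. Several windows are near copies of each other and so are not separate observations: that of Ifi208 was 89.5% identical to that of Ifi213 and 87.5% to that of Ifi206 over the aligned columns, and that of Ifi209 was 95.3% identical to that of Ifi214.

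The aligned windows of Ifi209 and Ifi214 had 287 identical bases over 301 columns. They differ by gaps and by 12 substitutions, 1 of these substitutions inside the ISRE core match of Ifi214 and 11 elsewhere. Counting from 1 at the 5′ end of the Ifi214 window, the one inside is G172T, at the first base of the match. The stretches around it are shown with the aligned bases of the ISRE core in capitals.
Ifi214, chr1:173536007-173536056, minus strand: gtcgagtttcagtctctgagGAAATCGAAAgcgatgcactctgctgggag
Ifi209, chr1:173630760-173630809, plus strand: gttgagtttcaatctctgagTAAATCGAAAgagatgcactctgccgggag

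**Figure D1:**
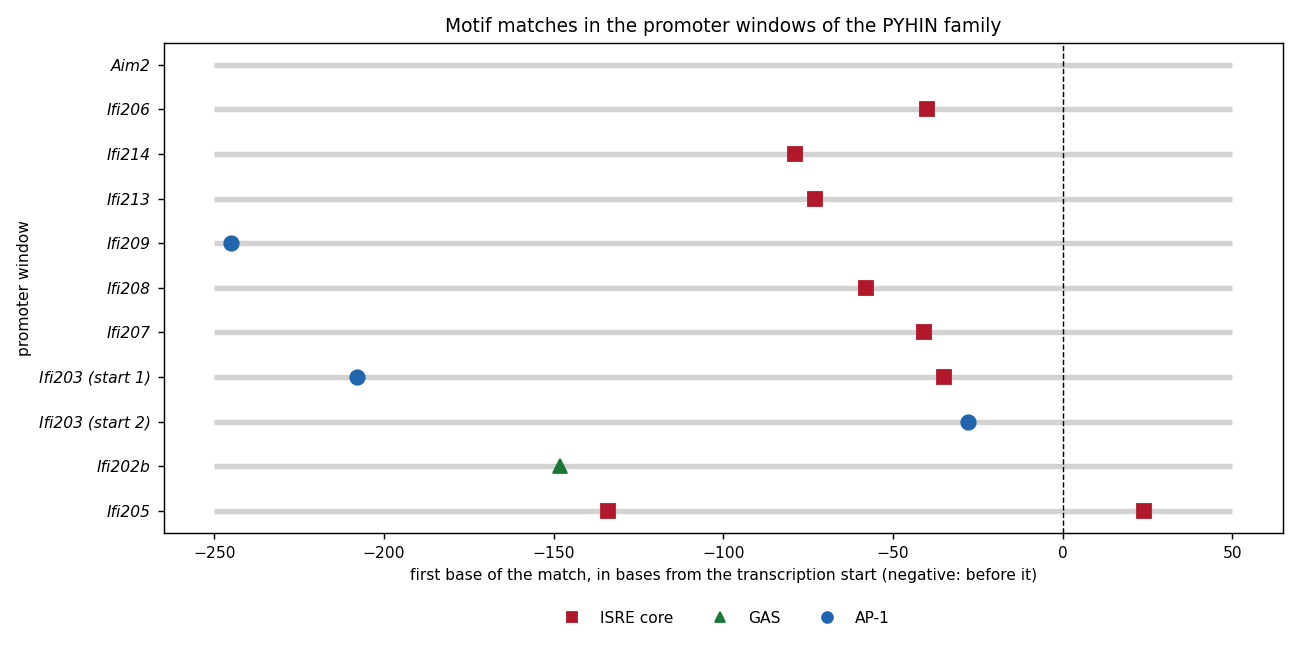
Positions of motif matches in the promoter windows of the 10 measured family genes, with genes down the page in their order along chromosome 1 and the distance of the first base of each match from the transcription start along the axis, in bases. Red squares are ISRE core matches, green triangles GAS and blue circles AP-1; Ifi203 has 2 annotated starts. Of the 8 ISRE matches, 6 lie between bases -79 and -35.

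Ifi205, an interferon-inducible gene at the far end of the cluster, separated treated from untreated cells in both genotypes. In knockout cells its log2 values were 12.74, 12.92 and 12.60 with curdlan, against 9.21, 10.10 and 9.97 untreated. In wild-type cells they were 12.79, 12.87 and 12.86 with curdlan, against 8.61, 8.85 and 8.92 untreated. Treated and untreated arrays did not overlap in either genotype, and the treated levels of the genotypes lay close together. In knockout cells Ifi205 rose 7.98-fold (log2 difference 3.00 ± 0.19, SE, n = 3 per group, limma adjusted p 3.21e-06), place 16 of 19937 genes ordered by the knockout difference. In wild-type cells, where the family was chosen, the ratio was 16.5-fold (log2 difference 4.05 ± 0.19).

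Ifi213, for which the gene table also lists the symbol Pydc4, showed the same separation. In knockout cells it gave 11.51, 11.72 and 11.02 with curdlan, against 7.89, 8.998 and 8.03 untreated. In wild-type cells it gave 11.13, 11.04 and 11.02 with curdlan, against 7.43, 7.10 and 7.13 untreated. The treated arrays again lay above the untreated ones without overlap, and untreated knockout array 2 stood well above the other 2 of its group. The knockout rise was 8.65-fold (log2 difference 3.11 ± 0.25, SE, n = 3 per group, limma adjusted p 1.9e-05), place 14 of 19937, and the wild-type ratio was 14.35-fold (3.84 ± 0.25).

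Aim2, the inflammasome sensor, showed small differences only. Its values were 10.37, 10.48 and 10.39 with curdlan and 10.18, 10.20 and 10.34 untreated in knockout cells, and 10.37, 10.44 and 10.55 with curdlan and 10.32, 10.30 and 10.35 untreated in wild-type cells. All 12 arrays lay within a narrow band, although the treated arrays lay just above the untreated ones in each genotype. The knockout difference was 0.17 (95% interval 0.03 to 0.31) and did not pass (limma adjusted p 0.0734), and the wild-type difference was 0.13 ± 0.06 (SE). In knockout cells the call was gained without untreated knockout array 3 (0.223, adjusted p 0.0492) and after a further quantile normalisation (0.2, adjusted p 0.0398). The whole 95% interval for Aim2 lay below that for Ifi205 in knockout cells (2.59 to 3.40).

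**Figure D2:**
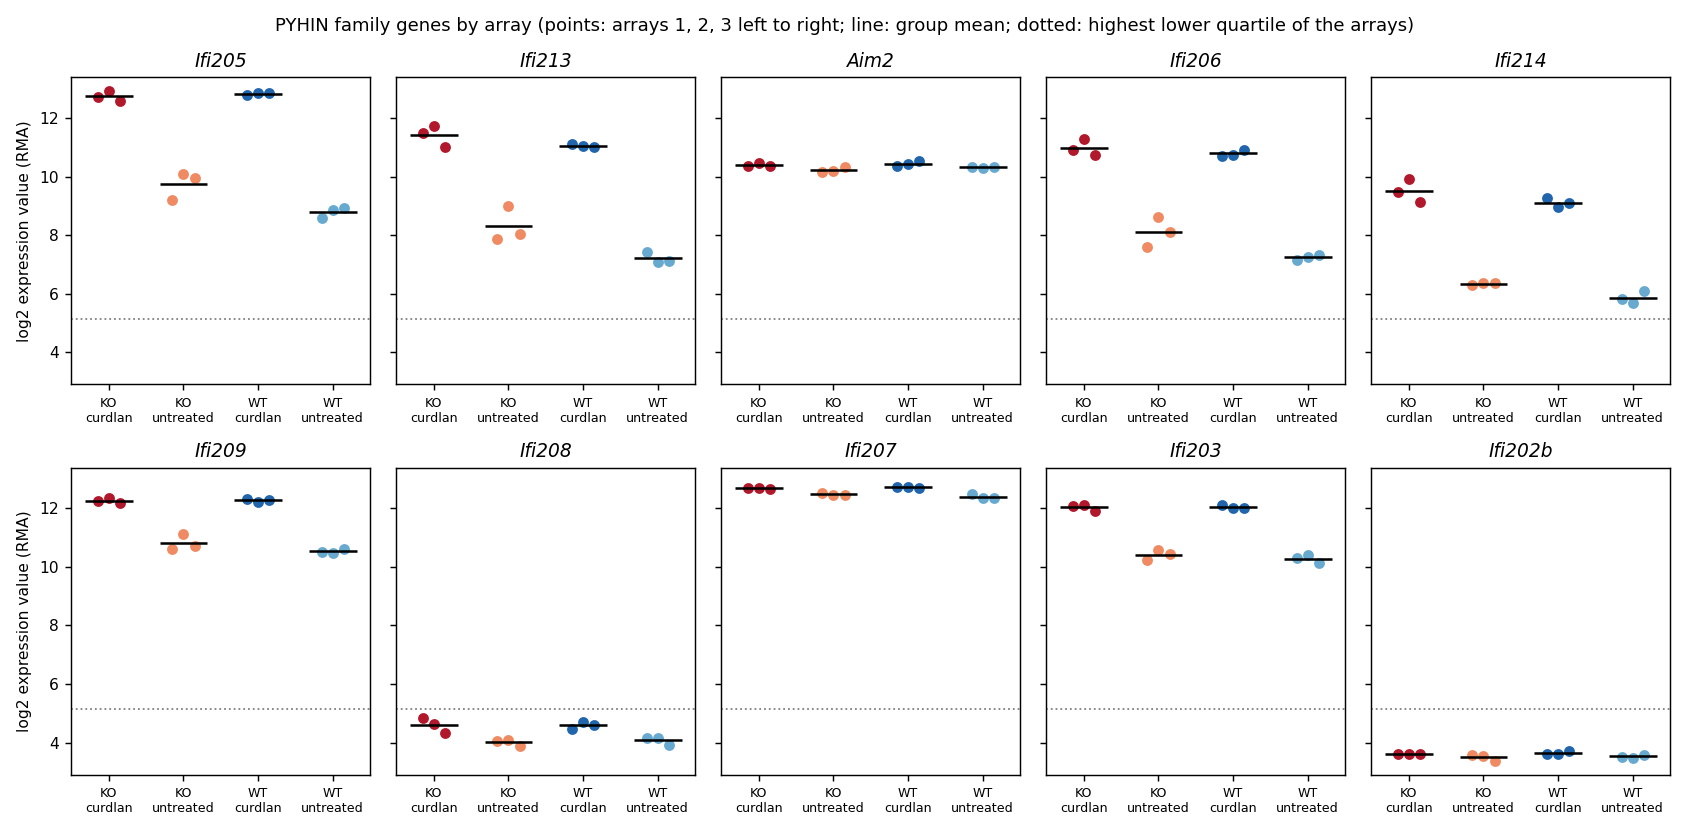
Log2 expression values of the 10 measured family genes on each of the 12 arrays, with the groups along the axis (KO, IL-2 knockout; WT, wild type), arrays as points, group means as black lines and the highest lower quartile of the arrays as a dotted line. Ifi205 and Ifi213 separate by treatment, Aim2 stays between 10.18 and 10.55, and Ifi208 and Ifi202b lie below the dotted line.

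The other 7 genes of the family give the setting for these members. With curdlan 6 of 7 rose in knockout cells and 6 of 7 in wild-type cells, and 0 fell. Over all genes the same call upward was made for 9.29% in knockout cells and for 7.27% in wild-type cells. The median log2 difference of the 7 genes was 1.43 in knockout cells and 1.74 in wild-type cells, where that of all genes was 0.04 and 0.02. In knockout cells the treated arrays lay above the untreated arrays without overlap on all 10 family genes, as they did on 19.4% of all genes. In wild-type cells they did so on all of the other 7 genes, as on 17% of all genes. The members did so there too, which is a description only, since the family was chosen by that comparison. Among the other 7 genes, Ifi208 and Ifi202b lay near background in every group. Of the 3 members, 2 passed upward in knockout cells.

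Some cell type markers also rose with curdlan, where 9.29% of all genes rose in knockout and 7.27% in wild-type cells. The mean of the 8 dendritic cell markers was 11.13 to 11.24 with curdlan against 10.69 to 10.98 untreated in knockout cells, and 11.37 to 11.41 with curdlan against 11.08 to 11.23 untreated in wild-type cells, with 3 of 8 rising in knockout and 2 of 8 in wild-type cells. The mean of the 4 plasmacytoid dendritic cell markers was 7.04 to 7.19 with curdlan against 6.79 to 6.83 untreated in knockout cells, and 7.19 to 7.35 with curdlan against 6.83 to 7.08 untreated in wild-type cells, with 2 of 4 rising in knockout and 1 of 4 in wild-type cells. Of these 4 markers 2, Siglech and Ccr9, lay below every array's median. The mean of the 5 macrophage markers in wild-type cells was 12.06 to 12.17 with curdlan against 11.93 to 12.03 untreated, with 2 of 5 rising in each genotype. In knockout cells the means also lay higher with curdlan without overlap for NK cell (5.18 to 5.32 against 5.10 to 5.12 untreated), mast cell (4.31 to 4.35 against 4.21 to 4.26 untreated) and erythroid markers (5.60 to 5.65 against 5.45 to 5.59 untreated), with 1, 1 and 0 markers rising. The part of these values in the family's differences was not tested.

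Ifi206 and Ifi214 had the largest differences among these 7 genes in both genotypes. Ifi206 gave 10.92, 11.28 and 10.75 in curdlan-treated against 7.60, 8.61 and 8.10 in untreated knockout cells, a rise of 7.37-fold (log2 difference 2.88 ± 0.205, SE, adjusted p 9.69e-06). In wild-type cells it gave 10.72, 10.75 and 10.93 with curdlan against 7.14, 7.26 and 7.33 untreated, a rise of 11.8-fold (3.56 ± 0.205, adjusted p 1.16e-06). Treated and untreated arrays of Ifi206 did not overlap in either genotype. Ifi214 gave 9.50, 9.93 and 9.14 in curdlan-treated against 6.31, 6.37 and 6.37 in untreated knockout cells (9.01-fold, adjusted p 1.51e-06). It gave 9.28, 8.97 and 9.09 in curdlan-treated against 5.81, 5.69 and 6.11 in untreated wild-type cells (9.49-fold, adjusted p 5.8e-07).

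Ifi209 and Ifi203 rose in both genotypes with smaller estimated differences. Ifi209 averaged 12.26 ± 0.08 with curdlan against 10.82 ± 0.27 untreated in knockout cells (SD, n = 3 each), and 12.27 ± 0.07 with curdlan against 10.54 ± 0.06 untreated in wild-type cells, rises of 2.7-fold and 3.33-fold (limma adjusted p 1.39e-05 and 2.22e-06). Ifi203 averaged 12.04 ± 0.11 with curdlan against 10.42 ± 0.17 untreated in knockout cells (SD, n = 3 each) and 12.05 ± 0.05 with curdlan against 10.29 ± 0.14 untreated in wild-type cells, rises of 3.06-fold and 3.39-fold (limma adjusted p 2.68e-06 and 7.22e-07).

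Ifi207 rose by a small amount. It gave 12.66 to 12.71 with curdlan against 12.46 to 12.53 untreated in knockout cells, and 12.71 to 12.74 with curdlan against 12.34 to 12.49 untreated in wild-type cells. The rises of 1.15-fold and 1.26-fold passed (limma adjusted p 0.0197 and 0.00146), although the knockout call was lost without curdlan-treated knockout array 1 (adjusted p 0.0603), array 2 (0.0679) or untreated knockout array 3 (0.066). Ifi207 carries an ISRE core match at base -41.

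Ifi208 and Ifi202b lay near background on all 12 arrays, below each array's lower quartile. Ifi208 gave 4.31 to 4.85 with curdlan against 3.87 to 4.08 untreated in knockout cells, and 4.48 to 4.71 with curdlan against 3.92 to 4.16 untreated in wild-type cells. Its differences passed the test in both (limma adjusted p 0.00687 and 0.0118), and no fold is given because both sides are dim. Ifi202b, little expressed in C57BL/6 mice as background knowledge has it, gave 3.38 to 3.72 over all arrays and did not pass (limma adjusted p 0.203 in knockout and 0.246 in wild-type cells). Whether probe sets of one family gene also read RNA of a close relative was not tested, since probe sequences were not used here.

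**Figure D3:**
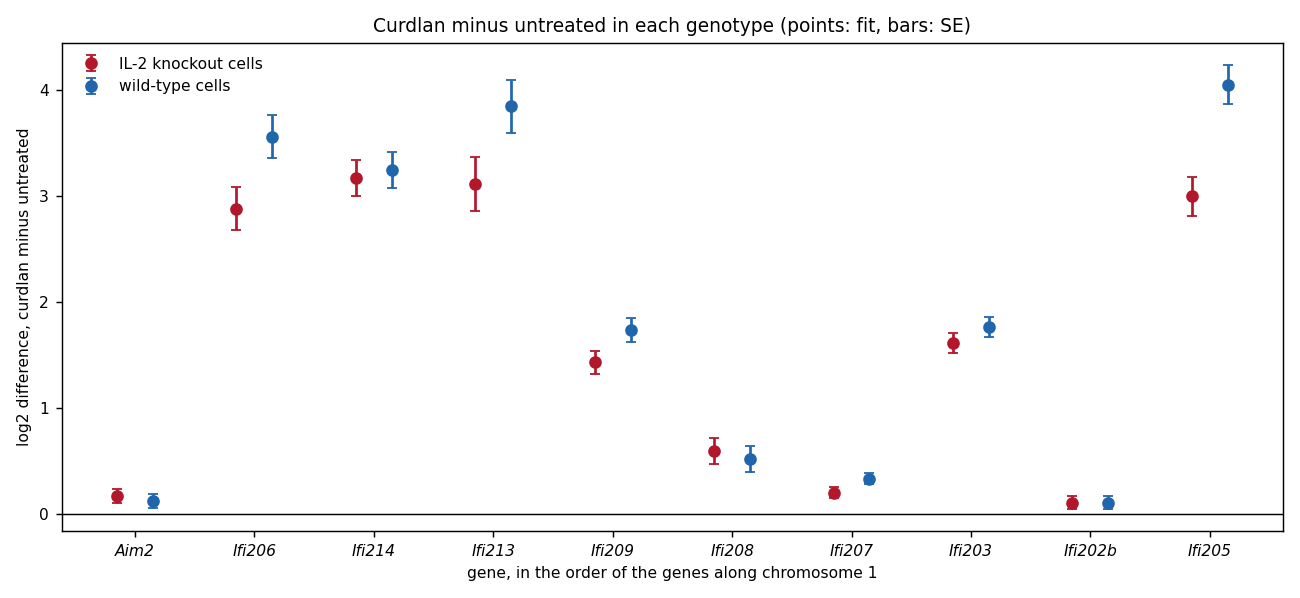
Log2 difference of curdlan-treated minus untreated cells for each family gene, in the order of the genes along chromosome 1, with knockout cells in red, wild-type cells in blue and bars for the SE of the fit. Ifi206, Ifi214, Ifi213 and Ifi205 lie near 3 or above in both genotypes (2.88 for Ifi206 in knockout cells), Ifi209 and Ifi203 lie between 1.43 and 1.76, and Aim2 and Ifi202b lie near 0.

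Few chromosomal neighbours of the family passed. Within 1000000 bases of the cluster on each side 37 other genes were tested, and 4 passed with curdlan in each genotype, 2 higher and 2 lower, against 22.5% of all genes in knockout and 19.6% in wild-type cells. The same 4 genes passed in both: the receptor gene Slamf8 was higher (log2 difference 1.06 in knockout and 0.95 in wild-type cells, limma adjusted p 0.0298 and 0.0498), as was the olfactory receptor gene Olfr433 (0.39 and 0.28, adjusted p 0.00715 and 0.0288). The potassium channel gene Kcnj10 was lower (-0.56 and -0.75, adjusted p 0.00351 and 0.000571), as was Pigm (-0.23 and -0.22, adjusted p 0.0385 and 0.0455). By genotype 0 of the 37 passed in untreated or in treated cells, against 1.42% and 0.622% of all genes. Many of the 37 are olfactory receptor genes. How many of the 37 are expressed in these cells was not tested, so the shares over all genes are not a like comparison.

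The genotype comparison in untreated cells sets knockout against wild-type cells without the stimulus. Ifi205 was higher in knockout cells, which gave 9.21, 10.10 and 9.97 against 8.61, 8.85 and 8.92 in wild-type cells, without overlap. The difference was 0.97 ± 0.19 (SE, n = 3 per group), a ratio of 1.96, with a limma adjusted p of 0.0306. It was the only 1 of the 10 family genes to pass, where 0.231% of all genes passed upward. On 5 of the 10 the untreated knockout arrays lay wholly above the wild-type arrays, against 7.55% of all genes. This comparison uses the untreated wild-type arrays that also enter the wild-type curdlan ratio by which Ifi205 and Ifi213 were known. It is therefore not independent of that ratio, and that choice favours higher values of knockout minus wild type for these members. The call was lost without untreated knockout array 2 (0.799, adjusted p 0.113) or 3 (0.863, 0.0832), without untreated wild-type array 1 (0.878, 0.0626), 2 (0.998, 0.115) or 3 (1.03, 0.067), without curdlan-treated knockout array 1 (0.0507), and when only the 6 arrays compared were fitted (0.14).

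Ifi213 gave 7.89, 8.998 and 8.03 in untreated knockout cells against 7.43, 7.10 and 7.13 in untreated wild-type cells, again without overlap. Its difference of 1.09 ± 0.25 (SE, n = 3 per group) missed the threshold (limma adjusted p 0.0604). Ifi206 stood in the same position, with a difference of 0.86 ± 0.205 and an adjusted p of 0.0671. With the replicate number as a block, Ifi205 (adjusted p 0.00814), Ifi213 (0.0264) and Ifi206 (0.0234) all passed, and the count over all genes was 699 in place of 283. Without untreated knockout array 2 the difference of Ifi213 was 0.74, the lowest of its alternatives, and that of Ifi206 was 0.61. For Ifi214 (0.48, adjusted p 0.266) and Ifi209 (0.28, adjusted p 0.337) the untreated knockout arrays also lay above the wild-type arrays without overlap, and neither passed. Aim2 differed by -0.08 (95% interval -0.22 to 0.06, adjusted p 0.794).

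Other values also differed between the untreated genotypes. The mean of 11 interferon-stimulated genes outside the family was 8.91, 9.23 and 8.98 on the untreated knockout arrays against 8.62, 8.63 and 8.71 on the untreated wild-type arrays. The mean of the 8 dendritic cell markers was lower, at 10.69 to 10.98 in untreated knockout against 11.08 to 11.23 in untreated wild-type cells, with 1 of 8 past the threshold (Dpp4, named after its values were seen, -1.45, limma adjusted p 0.0134). The mean of the 5 macrophage markers was 12.06 to 12.17 in untreated knockout against 11.93 to 12.03 in untreated wild-type cells, with 0 of 5 past the threshold. The mean of the 5 T cell markers was 5.54 to 5.77 in untreated knockout against 5.41 to 5.51 in untreated wild-type cells, with 0 of 5 past the threshold. That of the 4 plasmacytoid dendritic cell markers was 6.79 to 6.83 in untreated knockout against 6.83 to 7.08 in untreated wild-type cells, ranges that just met, with 0 of 4 past the threshold. The mean of the 17 cytosolic DNA sensing genes was 9.404 to 9.456 in untreated knockout against 9.356 to 9.401 in untreated wild-type cells. These ranges lay just apart, with 0 of 17 past the threshold. The means of the other lists overlapped between the untreated genotypes. Of all genes 1.42% passed in either direction. The part of these values in the family's difference was not tested.

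After curdlan the estimated differences between the genotypes lay between -0.08 and 0.41 in the family. Ifi205 differed by -0.08 (knockout minus wild type, 95% interval -0.49 to 0.33, limma adjusted p 0.925), Ifi213 by 0.36 (-0.19 to 0.91, adjusted p 0.661) and Aim2 by -0.04 (-0.18 to 0.10, adjusted p 0.882). None of the 10 family genes passed, where 0.622% of all genes did in either direction. This comparison uses the curdlan-treated wild-type arrays that also enter the wild-type curdlan ratio by which Ifi205 and Ifi213 were known. It is therefore not independent of that ratio, and that choice favours lower values of knockout minus wild type for these members. For Ifi214 the difference was 0.41 (0.04 to 0.78, adjusted p 0.371). It passed with array quality weights (0.537, adjusted p 0.0489) and in no other alternative. Marker means still differed after curdlan. That of the 8 dendritic cell markers was 11.13 to 11.24 in knockout against 11.37 to 11.41 in wild-type cells, with 1 of 8 passing, lower. That of the 5 macrophage markers was 12.172 to 12.241 in knockout against 12.055 to 12.167 in wild-type cells, with 0 of 5 passing. The part of these values in the family's differences was not tested.

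**Figure D4:**
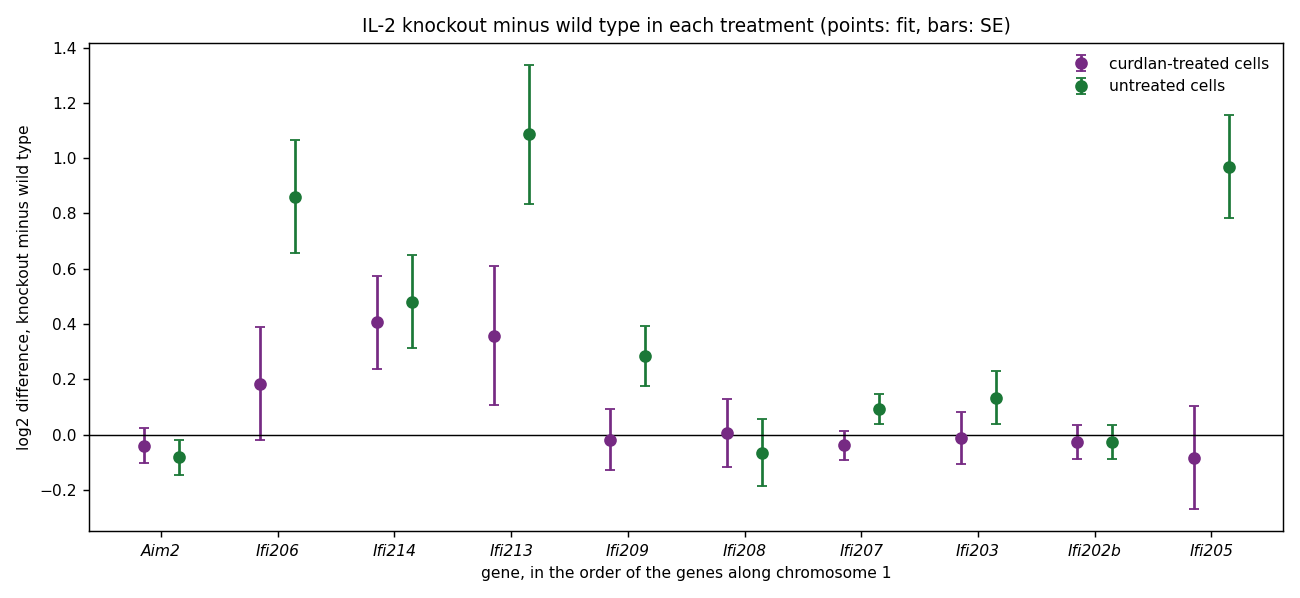
Log2 difference of IL-2 knockout minus wild-type cells for each family gene, with curdlan-treated cells in purple, untreated cells in green and bars for the SE of the fit. In untreated cells Ifi213 (1.09), Ifi205 (0.97) and Ifi206 (0.86) lie highest, while after curdlan the 10 genes lie between -0.08 and 0.41.

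The knockout curdlan difference minus the wild-type one was -1.05 ± 0.26 for Ifi205 (SE), -0.73 ± 0.36 for Ifi213 and 0.04 ± 0.09 for Aim2. It subtracts the wild-type difference for whose size Ifi205 and Ifi213 were known, a choice that favours negative values, so it is a description of the members and carries no p. Of the other 7 family genes 0 passed this comparison (limma adjusted p of 1 for each), among them Ifi206 at -0.68 ± 0.29. Of the 19937 genes 0 passed (0% of genes), and 552 (2.77%) had an unadjusted p under 0.05.

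Within groups, 5 of the family genes varied together. Untreated knockout array 1 was the lowest and array 2 the highest of their group for Ifi205 (9.21 and 10.10) and for Ifi213 (7.89 and 8.998), and likewise for Ifi203, Ifi206 and Ifi209. Over the 12 arrays, after group means were removed, the deviations of these 5 genes correlated at 0.58 to 0.90 in their 10 pairs, as a description of genes picked after their values were seen and measured on the same arrays. The SD of Ifi205 was 0.48 and that of Ifi213 was 0.60 in untreated knockout cells, against 0.16 and 0.18 in untreated wild-type cells. Aim2 deviated by at most 0.10 on any array.

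**Figure D5:**
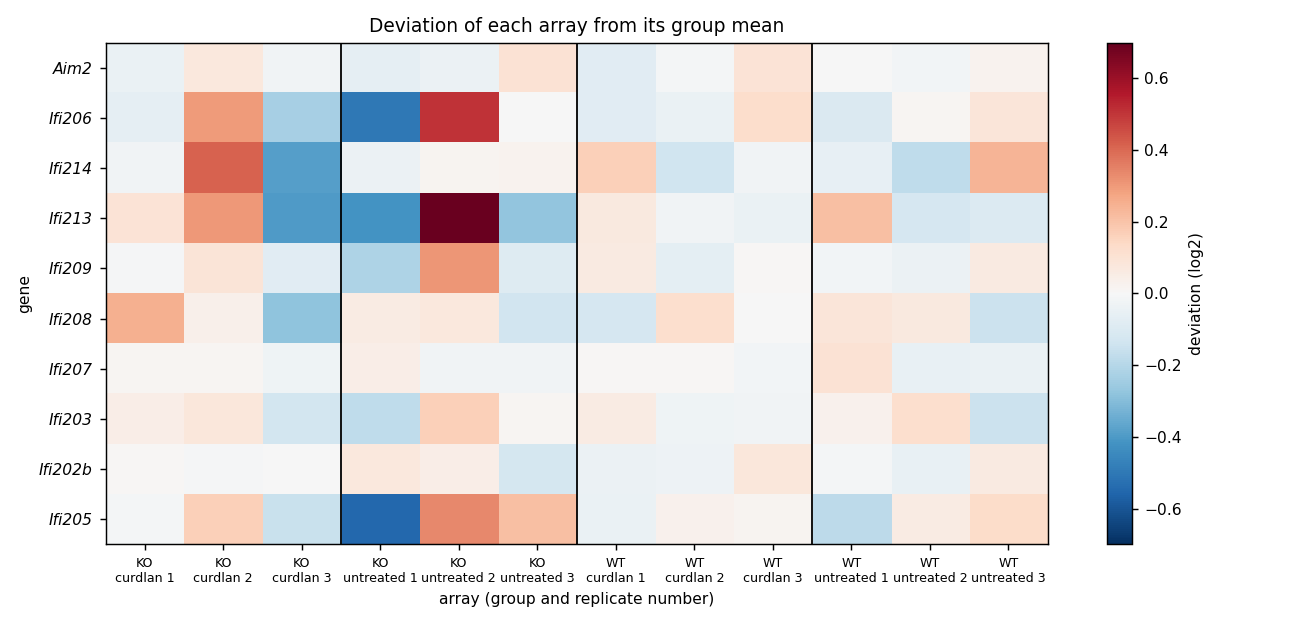
Deviation of each array from its group mean (log2, colour) for the 10 family genes in chromosomal order, with arrays ordered by group and replicate number. Untreated knockout array 2 is high for Ifi213 (0.69), Ifi206 (0.51), Ifi205 (0.34) and Ifi209 (0.31), and untreated knockout array 1 is low for Ifi205 (-0.55), Ifi206 (-0.50) and Ifi213 (-0.42).

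Genes outside the family with the most similar pattern over the 12 arrays were named by Pearson's r, a description in which all genes share the arrays and the treatment. For Ifi205 these were the antiviral gene Rsad2 (0.995), Rnf213 (0.993) and Ifit3 (0.992). For Ifi213 they were the interferon regulatory factor gene Irf7 (0.997), and the antiviral genes Oasl2 (0.996) and Oas3 (0.995). For Aim2 they were Ccnl1 (0.941), Arf4 (0.934) and Fbxo44 (0.929). By deviations within groups the nearest were Naprt (0.984), Cxcl16 (0.959) and Nxph3 (0.956) for Ifi205, and Ccn6 (0.982), the RNA sensor gene Ddx58 (0.976) and Irf7 (0.970) for Ifi213. For Aim2 they were Cask (0.948), Fbxo11 (0.945) and Sufu (0.928). High values of r are readily found among so many genes with so few arrays.

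Of 14 measured inflammasome genes, a list that also holds sensors and partners of inflammasomes other than that of Aim2, 8 rose with curdlan in each genotype and 0 fell. Of all genes 9.29% rose and 13.2% fell in knockout cells, and 7.27% rose and 12.3% fell in wild-type cells. This list and those below were chosen with earlier results of these data known. The median difference of the 14 genes was 0.41 in knockout and 0.46 in wild-type cells. The largest rises were in the guanylate-binding protein gene Gbp5 (2.65 in knockout and 2.01 in wild-type cells, limma adjusted p 8.84e-05 and 0.000479), the non-canonical inflammasome caspase gene Casp4 (1.58 and 1.86, adjusted p 2.85e-05 and 6.7e-06), and the cytokine genes Il1b (1.38 and 1.67, adjusted p 0.00283 and 0.000784) and Il1a (0.75 and 0.74, adjusted p 0.00206 and 0.00193). Pycard, the adaptor of Aim2 named here after its values were seen, gave -0.02 and -0.10 and did not pass (adjusted p 0.832 and 0.362). No inflammasome gene passed by genotype, where 1.42% of all genes passed in untreated and 0.622% in treated cells.

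Of 17 genes of cytosolic DNA sensing 9 rose and 2 fell in each genotype. Over all genes 9.29% rose and 13.2% fell in knockout cells, and 7.27% rose and 12.3% fell in wild-type cells. Irf7 rose by 2.72 in knockout and 3.35 in wild-type cells (limma adjusted p 1.13e-05 and 1.58e-06), the nucleic acid sensor gene Zbp1 by 1.80 and 2.02, the DNA exonuclease gene Trex1 by 1.09 and 1.33, and Ifi35 by 1.18 and 1.26 (adjusted p at or under 2.6e-05). The genes that fell, named here after their values were seen, were the DNA repair genes Xrcc6 (-0.51 and -0.62) and Mre11a (-0.40 and -0.33), with adjusted p between 0.0092 and 0.0249.

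Of 16 interferon signalling genes 9 rose in knockout and 6 in wild-type cells, and 1 fell in each, the interferon gamma receptor gene Ifngr1 (-0.67 and -0.73, limma adjusted p 0.00056 and 0.000252). Over all genes 9.29% rose and 13.2% fell in knockout cells, and 7.27% rose and 12.3% fell in wild-type cells. Usp18, which restrains interferon receptor signalling, rose by 1.83 and 1.79 (adjusted p 1.78e-06 and 1.12e-06). The transcription factor genes Stat2 (1.35 and 1.37), Irf1 (1.29 and 1.19) and Irf8 (0.75 and 0.96) rose in both, with adjusted p at or under 0.000633. The interferon beta gene Ifnb1, named after its values were seen, did not pass (0.25 and 0.01, adjusted p 0.0913 and 0.933).

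Of 11 interferon-stimulated genes of other families 11 rose in each genotype, with a median difference of 2.55 in knockout and 3.13 in wild-type cells. Over all genes 9.29% rose in knockout and 7.27% in wild-type cells. Ifit2 rose by 3.79 and 4.21, Ifit3 by 3.23 and 3.77, the chemokine gene Cxcl10 by 3.63 and 3.71 and Oasl1 by 3.09 and 3.62 (limma adjusted p at or under 5.54e-05). In untreated cells 2 of the 11 were higher in the knockout, Rsad2 (0.51, limma adjusted p 0.0258) and Ifit1 (0.65, adjusted p 0.0437), where 0.231% of all genes passed upward. Rsad2 gave 10.24, 10.58 and 10.58 in untreated knockout against 10.00, 9.87 and 10.01 in untreated wild-type cells, and Ifit1 gave 9.13, 9.30 and 9.07 in the knockout against 8.47, 8.47 and 8.63 in wild type, both without overlap. Over 19 alternatives the adjusted p ranged from 0.0108 to 0.139 for Rsad2 and from 0.00822 to 0.201 for Ifit1. No gene of this list passed by genotype after curdlan, where 0.622% of all genes did in either direction.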

How the data were processed

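The authors deposited log2 values, 1 for each probe set on each array, made with RMA (background correction, between-array normalisation, probe summary), per the submitters' processing notes, with no version stated there. Of 34760 probe sets, 21640 carry exactly 1 gene symbol. Where several such probe sets named a gene (954 genes), the brightest on average stood for it, giving 19937 genes. Symbols were updated by gene ID.

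Using limma 3.58.1 (R 4.3.3), 4 group means were fitted over the 12 arrays together (8 residual degrees of freedom, two-sided moderated test), with p-values adjusted by Benjamini and Hochberg over all genes within each comparison and a threshold of 0.05. The fit was tested on simulated data. The members, gene lists and tests were chosen with earlier results of these data known. Named list genes are those past the threshold with the largest change, up to 4 by curdlan and up to 4 by genotype. Deviations from group means of arrays sharing a replicate number had correlations over genes of 0.368 to 0.604 within a genotype, 0.105 to 0.254 between untreated genotypes and -0.134 to 0.328 between treated ones. The numbers were therefore taken to pair all but the last. The main fit did not use this pairing, so its SEs and p-values leave it out. The replicate block was an alternative. For curdlan and for the difference between responses it was set within each genotype. For both genotype comparisons the effect of a replicate number was shared by all 12 arrays. The block for untreated genotypes therefore also pairs the treated genotypes, whose numbers were not taken to pair. The block was run for the treated genotypes as well. Alternatives left out each array, added the replicate block, and changed the arrays fitted, the filter on dim genes, the normalisation, the spread model, the weights and the probe set rule. Promoter identity used biopython 1.88. For arrays, their number limits the precision.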

Additional observations from a re-analysis of the deposited data

Results flagged for a closer look

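The probe set annotated to both Ifi204 and Ifi211 stands outside the genes tested, and its signal was higher with curdlan than in untreated cells. It gave log2 values of 12.019, 12.001 and 11.953 with curdlan against 10.855, 11.206 and 10.997 untreated in knockout cells, a difference of 0.971. In wild-type cells it gave 12.018, 11.992 and 11.989 with curdlan against 10.769, 10.117 and 10.606 untreated, a difference of 1.502. Treated and untreated arrays did not overlap in either genotype. No test was made, and the signal cannot be assigned to either gene.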

How the results depend on the processing

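Each result was recomputed under 19 alternatives, or 18 for the difference between responses. Of 930 values of single family genes, 882 kept their direction and their side of the threshold or, where untested, stayed within the spread between replicates, and 0 called values reversed. Members past the threshold in knockout cells with curdlan numbered 2 and ranged from 2 to 3 with each array left out, and other family genes numbered 6 and ranged from 5 to 6, while in wild-type cells other family genes stayed at 6. For untreated genotypes the members numbered 1 (0 to 1 with an array left out) and other family genes 0 (0 to 1). With the replicate block they numbered 2 and 1, with array quality weights 2 and 1, and with the compared arrays alone the members numbered 0. For treated genotypes the other family genes numbered 0, and 1 with array quality weights. Counts over all genes ranged with an array left out from 2041 to 5284 for curdlan in knockout cells and from 2625 to 4011 in wild-type cells, and from 52 to 447 for genotype in untreated and from 19 to 172 in treated cells. For genotype in untreated and treated cells they were 699 and 450 with the replicate block, 70 and 15 with the compared arrays alone, and 615 and 1402 with array quality weights, in place of 283 and 124. For the difference between responses, all genes ranged from 0 to 2 with an array left out, and other family genes stayed at 0. The members were not counted there, because the comparison holds the wild-type difference for which Ifi205 and Ifi213 were known. As a description, the value of Ifi205 ranged from -1.329 to -0.883 over the 18 alternatives. Besides those of Ifi213 and Ifi206 in untreated cells, the block for the replicate number changed no call of a family gene. The causes were not tested.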
